A study of Mus musculus with 11 samples.

Results

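The genes described here are 8 genes of cholesterol synthesis and its control, Srebf2, Insig1, Hmgcs1, Idi1, Fdps, Sqle, Lss and Cyp51. They were chosen by symbol and not by a rule on their measured values, though earlier results of these data were known. Each matched 1 row of the table through its Entrez Gene identifier, which makes 8 of the 23835 genes tested. RNA was measured on 11 Affymetrix arrays, 4 of primary tumour cells, 3 of residual lesion cells and 4 of recurrent tumour cells, and each value is a log2 signal, on which 1 unit is a doubling. All arrays hold mouse mammary tumour cells of genotype MMTV-rtTA;TetO-Wnt1, named Wnt1-Prim1 in the series title, in which doxycycline acts through rtTA, under the mammary tumour virus promoter, to drive the secreted ligand Wnt1. The cells carried the fluorescent histone H2B-eGFP, grew as orthotopic tumours in nu/nu females, mice which lack a thymus but keep macrophages and fibroblasts, and were isolated as GFP-positive cells. Primary tumours grew on doxycycline and are labelled untreated. Residual lesions were taken 28 days after doxycycline withdrawal, labelled Wnt1 inhibition, and recurrent tumours carry the same treatment label with no day given. Whether Wnt1-Prim1 is 1 clone, the age of the mice and whether animals were pooled are not stated in the labels. Nothing in the labels says that replicate arrays are separate animals, and p-values here speak only of the spread among these samples, which may be technical.

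Cholesterol is built from acetyl-CoA in the mevalonate pathway, which also supplies the isoprenoid groups of prenylated proteins, dolichol and ubiquinone, and then in a sterol branch that starts with squalene. The transcription factor SREBP2 switches most of these enzymes on together when membranes are short of sterol, and is held in the endoplasmic reticulum by INSIG proteins when sterol is plentiful. Growing tumour cells need new membrane and often run this pathway at a high rate, while excess sterol is handled by the nuclear receptor LXR and its target genes of efflux.

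All 8 genes had lower means in residual cells than in primary tumour cells, and Sqle and Fdps passed the test. In recurrent cells Sqle was higher than in residual cells and no gene passed against primary cells, and the 4 recurrent arrays lay far apart. On recurrent 1 and recurrent 2 every one of the 8 genes read below the lowest primary array, and on recurrent 4 only Fdps did. The same 2 arrays were low in Msmo1, a C4 methyl oxidase of the sterol branch. Abcg1, a cholesterol exporter and LXR target, was above every primary array on all 4 recurrent arrays, recurrent 3 narrowly. Its difference of 1.06 from primary cells did not pass (limma, adjusted p = 0.0866). Abcg1 was higher on recurrent 1 and recurrent 2 than on the other recurrent arrays.

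SREBP2 acts with the CCAAT-binding factor NF-Y at many of its targets, so the promoters of the 8 genes were read for both kinds of letters. RefSeq windows of assembly GRCm38.p6, from 250 bases before to 50 bases after the transcript start, were held for 6 of the 8 genes, Hmgcs1, Idi1, Lss, Cyp51, Insig1 and Srebf2, but not for Sqle and Fdps. All 6 held a CCAAT box on either strand, against 37.4% of 32851 promoters of the same length, and all 6 held a GC box GGGCGG, against 35.7%. The 6 windows had 52.3% to 71.7% G and C, where the median promoter had 52.7%, and the part of base composition in these shares was not tested. A sterol response core, TCACNCCAC, was found in Hmgcs1 alone, beginning at position -137 from the start, against 1.24% of promoters, and the E-box CACGTG in Insig1 alone, against 7.15%. A match is a description of the letters and not a binding site, and a window without one says only that these letters are not in it. The whole Hmgcs1 window is shown because it carries both motifs named for this pathway, the sterol response core and the CCAAT box. Of the other 5, a stretch around CCAAT boxes is shown, since of these 2 motifs they carry the CCAAT box alone. Capitals mark CCAAT, its reverse complement ATTGG and, in Hmgcs1, the sterol response core. The Hmgcs1 window is chr13:119690101-119690400 on the plus strand.
Hmgcs1: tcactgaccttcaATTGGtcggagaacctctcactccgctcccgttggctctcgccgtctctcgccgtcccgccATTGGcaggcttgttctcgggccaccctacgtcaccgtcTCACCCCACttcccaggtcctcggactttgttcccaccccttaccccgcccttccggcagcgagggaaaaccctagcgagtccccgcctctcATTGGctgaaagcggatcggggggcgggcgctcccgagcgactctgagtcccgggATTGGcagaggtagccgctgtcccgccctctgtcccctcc
The other stretches, each 5′ to 3′ on the strand of its gene, are Idi1 at chr13:8885552-8885631 (plus), Lss at chr10:76531503-76531582 (plus), Cyp51 at chr5:4104687-4104766 (minus), Insig1 at chr5:28071162-28071235 (plus) and Srebf2 at chr15:82147094-82147173 (plus).
Idi1: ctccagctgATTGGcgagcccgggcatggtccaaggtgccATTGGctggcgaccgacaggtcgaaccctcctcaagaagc
Lss: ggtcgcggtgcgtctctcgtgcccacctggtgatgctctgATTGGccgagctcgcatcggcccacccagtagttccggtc
Cyp51: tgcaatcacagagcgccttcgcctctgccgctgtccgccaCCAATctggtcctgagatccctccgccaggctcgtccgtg
Insig1: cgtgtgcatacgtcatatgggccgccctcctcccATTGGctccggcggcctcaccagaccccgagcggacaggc
Srebf2: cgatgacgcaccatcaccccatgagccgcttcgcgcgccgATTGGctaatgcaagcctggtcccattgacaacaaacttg
Hmgcs1 held 4 such boxes, 3 of them before the start, and Idi1 held 2 within the 50 bases before its start.

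The whole set of arrays sets the scale for these values. The 95th percentile of 1083 olfactory receptor genes, a class not known to be used in mammary cells, was 4.00 to 4.03 on primary, 4.35 to 4.39 on residual and 4.06 to 4.12 on recurrent arrays, and a signal under it cannot be told from background. Krt8 and Krt18, keratins of simple epithelium, were far above it on every array, at means of 10.08 and 10.42 in primary, 8.41 and 8.09 in residual and 9.78 and 9.84 in recurrent cells. Krt14, a keratin of basal epithelium, went the other way, with a mean of 10.36 in residual cells and 7.63 in primary cells, a difference of 2.73 (adjusted p = 0.000286). Of the 9 epithelial markers 1 was higher, 3 were lower and 5 did not pass there, with 6 positive differences and a median of 0.75. Epcam and Cldn7, also epithelial markers, were under background on all primary and recurrent arrays, and 6 of the 9 had a mean above it. Residual 2 had the highest epithelial mean of the residual arrays, 7.24 against 6.25 and 6.02. Epcam read 6.29 there, against 3.47 and 4.10 on the other residual arrays, and Cldn7 read 5.95, against 3.78 and 3.93. Residual 2 was the only array with either gene above background. In these bulk samples fewer cells of a type and less RNA per cell cannot be told apart. In residual against primary cells 12.4% of all genes were called at an adjusted p under 0.05 (limma, Benjamini-Hochberg adjustment over all genes), 7.61% lower and 4.81% higher, and with arrays centred on their medians the called genes split into 2333 lower and 899 higher in place of 1814 and 1146. For recurrent against primary cells 1.8% were called, 0.986% lower and 0.818% higher. In recurrent against residual cells 5.78% were called, 2.19% lower and 3.58% higher. The comparisons share arrays and are therefore not independent of each other.

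**Figure D1:**
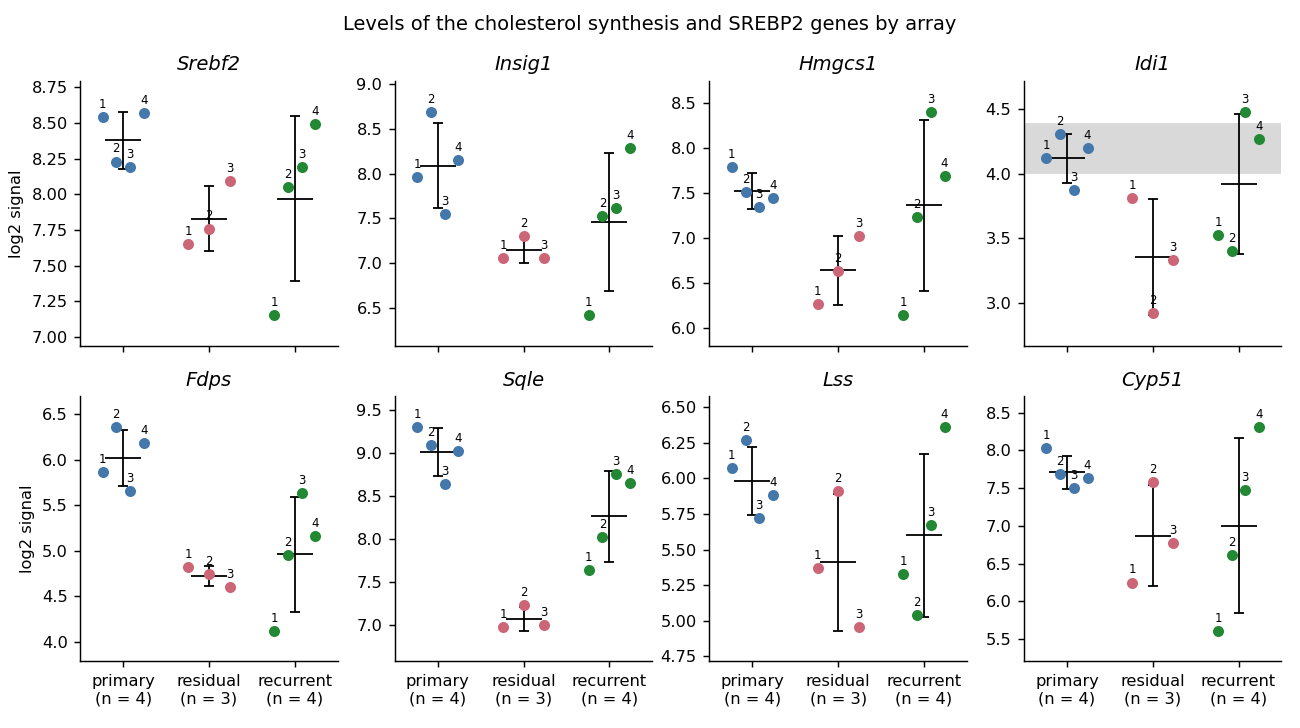
Log2 signal (y axes, a separate scale for each gene) of the 8 genes on each array of primary (blue, n = 4), residual (red, n = 3) and recurrent (green, n = 4) cells; points carry the array number, and bars give the mean and SD. The grey band behind Idi1 spans the background levels (95th percentile of olfactory receptor signals) of the 11 arrays. Sqle has all residual arrays under all others, and recurrent 1 is the lowest array of 6 of the 8 genes among the recurrent group.

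Srebf2 encodes SREBP2 itself (chr15:82147269-82205379). It read 7.65, 7.76 and 8.09 on the residual arrays, against 8.54, 8.23, 8.19 and 8.57 on the primary arrays. The groups did not overlap, but the difference of -0.55 (SE 0.27, 95% confidence interval -1.14 to 0.04) did not pass (adjusted p = 0.226). The recurrent arrays read 7.15, 8.05, 8.19 and 8.49, so that recurrent 1 lay under every residual array and recurrent 4 inside the primary range. The recurrent mean of 7.97 ± 0.58 (SD, n = 4) stood between 7.83 ± 0.23 in residual cells (n = 3) and 8.38 ± 0.20 in primary cells (n = 4) and passed against neither (adjusted p = 0.837 and 0.527).

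Insig1 encodes the anchor that holds the SREBP complex in the endoplasmic reticulum and is itself an SREBP2 target (chr5:28071412-28078662). It read 7.06, 7.31 and 7.06 on the residual arrays, against 7.96, 8.69, 7.55 and 8.15 on the primary arrays. The groups did not overlap, and the primary arrays spread over 1.13 units, the widest primary range of the 8 genes. The difference was -0.94 (SE 0.37, interval -1.75 to -0.13), with an unadjusted p of 0.0263 and an adjusted p of 0.13. On the recurrent arrays Insig1 read 6.42, 7.53, 7.62 and 8.29, which runs from under the residual range to inside the primary range. Across the 11 arrays it was the gene closest to the mean profile of the other 7, at a root-mean-square distance of 0.269, where Sqle was farthest at 0.467. This distance is a description over 11 arrays.

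Of the mevalonate enzymes, Hmgcs1, the cytosolic synthase that makes HMG-CoA (chr13:119690351-119708260), read 6.27, 6.63 and 7.02 on the residual arrays, against 7.79, 7.51, 7.34 and 7.44 on the primary arrays. All residual arrays were lower, with a difference of -0.88 in the means (SE 0.41, interval -1.77 to 0.02), and the difference did not pass (adjusted p = 0.203). The recurrent arrays read 6.14, 7.23, 8.40 and 7.69. Recurrent 1 was the lowest of all 11 arrays and recurrent 3 the highest. The recurrent mean of 7.36 ± 0.95 (SD, n = 4) stood close to the primary mean of 7.52 ± 0.20 (SD, n = 4), with a difference of -0.16 whose interval of -0.98 to 0.67 leaves a change of either sign possible (adjusted p = 0.911).

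Idi1, which isomerises isopentenyl diphosphate (chr13:8885606-8892396), was dim. It read 3.81, 2.92 and 3.33 on the residual arrays, against 4.12, 4.31, 3.87 and 4.20 on the primary arrays. It was above background on none of 3 residual arrays and on 3 of 4 primary arrays, so its residual level is only a bound, and the difference of -0.77 (SE 0.28) did not pass (adjusted p = 0.102). The recurrent arrays read 3.52, 3.40, 4.48 and 4.27, with recurrent 3 and recurrent 4 above background. Idi2, its neighbouring paralogue, was not called in any comparison, but it was under background on every array, so nothing is read from this.

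Fdps, which makes farnesyl diphosphate, the branch point towards sterols and prenyl groups (chr3:89093588-89101967), fell in residual cells. It read 4.82, 4.74 and 4.60 on the residual arrays, against 5.87, 6.36, 5.66 and 6.18 on the primary arrays, with no overlap and a wide gap. The difference was -1.30 (SE 0.29, interval -1.94 to -0.65, 2.46-fold, adjusted p = 0.0137, and 0.0504 without residual 3). The recurrent arrays read 4.12, 4.95, 5.63 and 5.16, and all 4 were below the lowest primary array, recurrent 3 narrowly. Fdps was the single gene of the 8 with this property, but its difference of -1.05 from primary cells (SE 0.27, interval -1.65 to -0.46) did not pass over all genes (adjusted p = 0.0854, and 0.0358 without recurrent 3). Against residual cells it differed by 0.24 (adjusted p = 0.714), with the ranges overlapping. Fdps was above background on every array, but its residual signals were close to their background levels of 4.35 to 4.39. On recurrent 1 it was close to the background of 4.06. Differences between such dim signals are compressed, so the sizes of the fold and of the difference of 0.24 are uncertain.

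In the sterol branch, Sqle, the epoxidase that oxidises squalene and a rate-limiting enzyme (chr15:59315092-59331193), had the largest fall of the 8 in residual cells. It read 6.98, 7.23 and 7.00 on the residual arrays, against 9.30, 9.09, 8.64 and 9.02 on the primary arrays. The residual arrays lay within 0.26 units of each other, and the difference of -1.94 (SE 0.26, interval -2.50 to -1.38, 3.84-fold) passed (adjusted p = 0.000536). The recurrent arrays read 7.64, 8.02, 8.75 and 8.65, every one above the highest residual array. Sqle was higher in recurrent than in residual cells by 1.19 (SE 0.26, interval 0.63 to 1.75, 2.29-fold, adjusted p = 0.0193), a call that was lost in a fit of these groups alone (adjusted p = 0.0703), with the replicate number as a block (0.0773), without residual 1 (0.0658) and without residual 3 (0.0611), over a range of 0.00554 to 0.0773 across the alternatives. Against primary cells it differed by -0.75 (SE 0.24), with an unadjusted p of 0.00875 and an adjusted p of 0.16.

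Lss, the cyclase that closes the sterol rings (chr10:76531565-76557139), read 5.37, 5.91 and 4.96 on the residual arrays, against 6.07, 6.27, 5.72 and 5.88 on the primary arrays. Residual 2 lay inside the primary range, and the difference of -0.57 (SE 0.30, interval -1.23 to 0.09) did not pass (adjusted p = 0.265). The recurrent arrays read 5.33, 5.04, 5.67 and 6.36, from near the lowest residual to above the highest primary array. Cyp51, the demethylase of lanosterol (chr5:4080674-4104697), read 6.25, 7.58 and 6.77 on the residual arrays, against 8.03, 7.69, 7.50 and 7.63 on the primary arrays. Residual 2 again lay inside the primary range, and the difference of -0.84 (SE 0.52) did not pass (adjusted p = 0.348). Cyp51 had the widest recurrent range of the 8 genes, with 5.61, 6.61, 7.47 and 8.31, so that recurrent 1 was the lowest and recurrent 4 the highest of all 11 arrays.

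In residual against primary cells 2 of the 8 genes were called, both lower, against 12.4% of all genes called and 7.61% called lower. The median difference of the 8 was -0.86 where that of all genes was 0.03, and the sign was negative for 8 of 8 where it was negative for 10986 of 23835 genes. For 6 of the 8 the residual arrays stood wholly apart from the primary arrays, against 24.8% of all genes. In a fit of the residual and primary arrays alone 5 were called, with Hmgcs1 (adjusted p = 0.021), Idi1 (0.0479) and Insig1 (0.0382) added, and without recurrent 1 there were 3, with Insig1 added (0.0389). Recurrent arrays enter the test through the shared estimate of the spread. In recurrent against primary cells 0 of 8 were called in limma, and 2, Fdps and Sqle, had an unadjusted p under 0.05, against 13.6% of all genes. Their median was -0.52 where that of all genes was -0.01, and 1 of 8 did not overlap, against 9.02% of all genes. In recurrent against residual cells 1 of 8, Sqle, was called higher, against 3.58% of all genes. The median was 0.28, against -0.03 over all genes, and 1 of 8 did not overlap, against 15.5%.

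**Figure D2:**
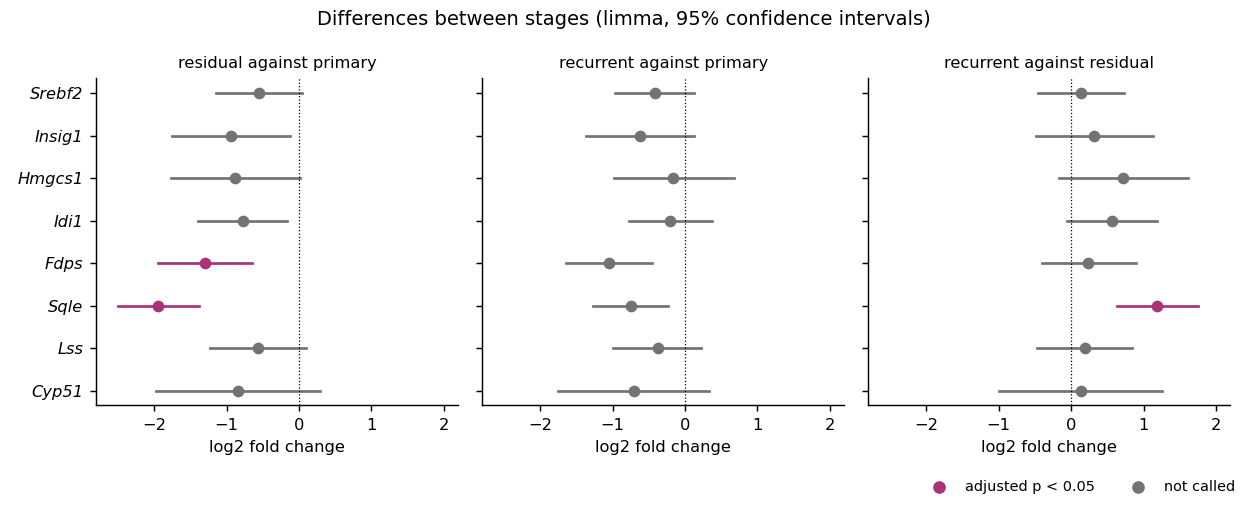
Log2 fold change (x axis) of each of the 8 genes in the 3 comparisons named above the panels, with 95% confidence intervals from limma; purple marks an adjusted p under 0.05. Fdps and Sqle are marked in the first comparison, no gene in the second and Sqle in the third.

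Array by array, the recurrent group was not uniform. On recurrent 1 and on recurrent 2 all 8 genes were below the lowest primary array, on recurrent 3 there were 3 and on recurrent 4 there was 1, while 25.0% to 27.3% of all genes were below it on each of these arrays. The median difference from the primary mean was -1.38 on recurrent 1, -0.83 on recurrent 2, -0.25 on recurrent 3 and 0.16 on recurrent 4, where the median of all genes was between -0.02 and -0.01. Recurrent 1 read below the lowest residual array for 5 of the 8 genes, and recurrent 4 read above the highest residual array for all 8. The 8 genes share a library on each array, so they are not separate observations of it.

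The SD over the recurrent arrays was 0.53 to 1.16 for the 8 genes, with a median of 0.60, against 0.19 to 0.47 with a median of 0.23 on the primary arrays. It was higher in the recurrent than in the primary group for 8 of 8 genes and for 59.0% of all genes. Over all genes the median SD was 0.23 in recurrent and 0.20 in primary cells. Cyp51, Hmgcs1, Insig1 and Fdps had a recurrent SD at or above 0.63, the 90th percentile of 13108 genes above background. On the residual arrays the SD was 0.11 to 0.67, narrow for Fdps, Sqle and Insig1 and wide for Cyp51.

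**Figure D3:**
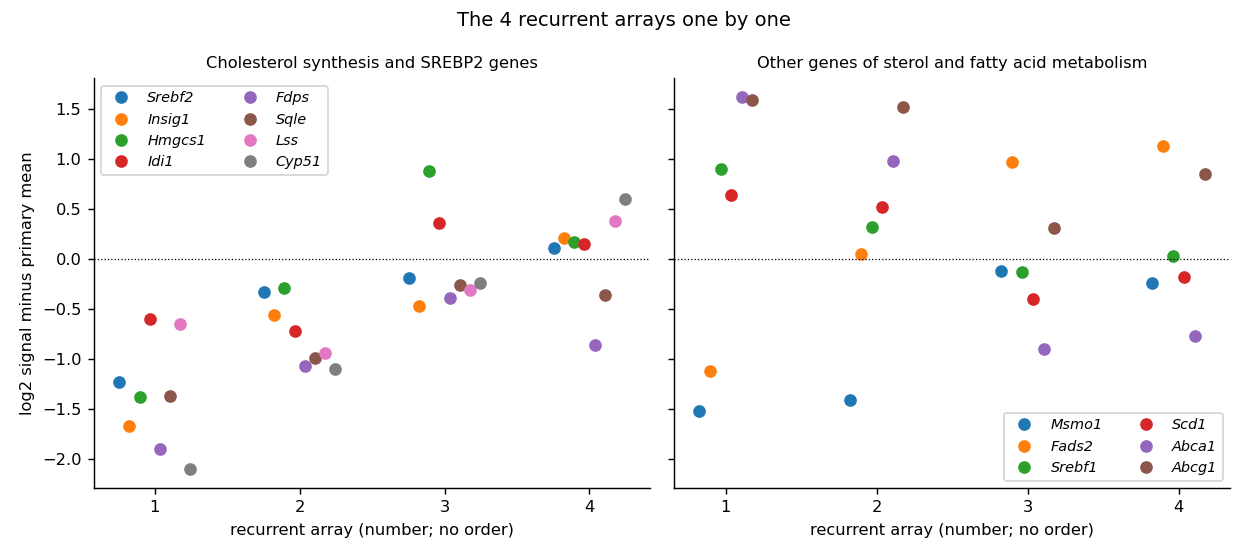
Log2 signal minus the primary mean (y axes) on each recurrent array (x axes; the numbers have no order, and points are shifted sideways to be seen apart) for the 8 genes on the left and 6 other genes of lipid metabolism on the right. All 8 genes lie below 0 on recurrent 1 and recurrent 2 and on both sides of it on recurrent 3 and recurrent 4; Msmo1 lies at -1.52 and -1.41 on recurrent 1 and recurrent 2 and near 0 on the others.

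The other enzymes of the pathway were taken from lists of 7 mevalonate and isoprenoid genes and 11 sterol genes. Of these 18, 8 fell and 10 did not pass in residual against primary cells, with a median of -0.64. Of the 7 mevalonate and isoprenoid genes 1 fell, with a list median of -0.48, and of the 11 sterol genes 7 fell, with a median of -0.94. Msmo1 read 6.49, 7.49 and 6.93 on the residual arrays, against 9.09, 8.93, 8.12 and 8.39 on the primary arrays, a difference of -1.66 (SE 0.39, adjusted p = 0.0161) with no overlap. Sc5d, a sterol desaturase, differed by -1.55 (adjusted p = 0.0108) and Lbr, a sterol reductase that is also the lamin B receptor, by -1.09 (adjusted p = 0.00199). The count for the 18 enzymes was 4 to 8 with each array left out, and 4 without primary 1, primary 4, residual 1 or residual 3. It was 3 with the replicate number as a block, 4 after a second quantile normalization and 2 at an adjusted p under 0.01.

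In recurrent against primary cells 0 of these 18 enzymes were called in limma, and 7 had an unadjusted p under 0.05, against 13.6% of all genes. Msmo1 read 7.11, 7.22, 8.51 and 8.39 on the recurrent arrays, so recurrent 1 and recurrent 2 lay in the residual range and recurrent 3 and recurrent 4 in the primary range. On each recurrent array 25.0% to 27.3% of all genes were below the lowest primary array. Of the 18 enzymes, 12 (66.7%) on recurrent 1 and 10 (55.6%) on recurrent 2 were below it. On recurrent 3 there were 5 (27.8%) and on recurrent 4 there were 6 (33.3%). In recurrent against residual cells 2 were higher, among them Lbr by 1.10 (adjusted p = 0.00377), while Ebp, the sterol isomerase, was lower, with a difference of -1.10 (adjusted p = 0.0155), and 15 did not pass.

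**Figure D4:**
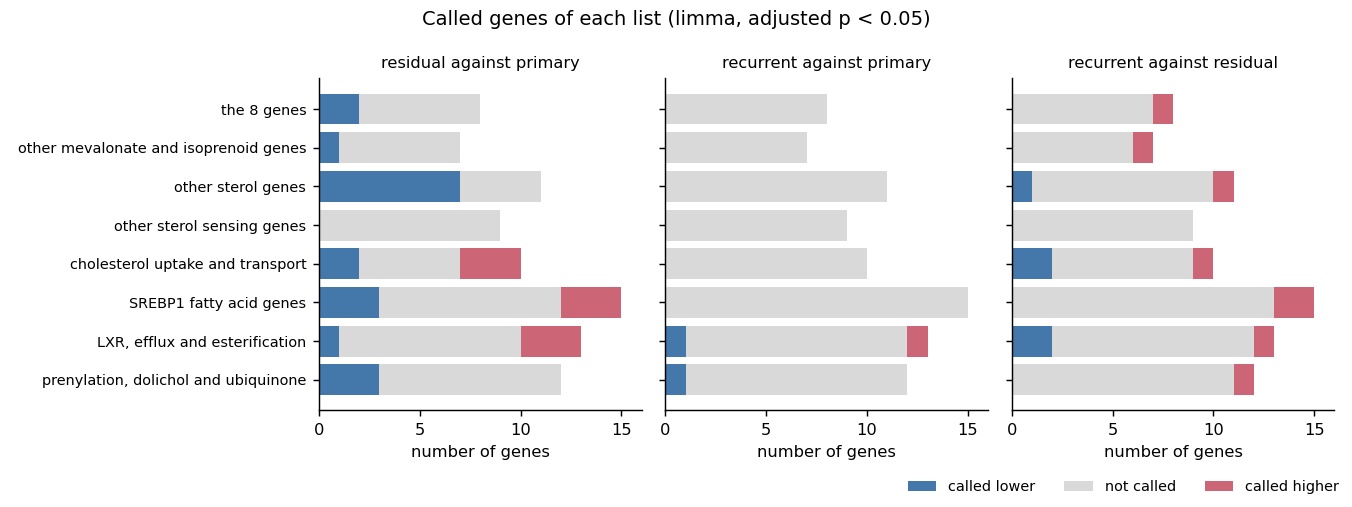
Number of genes (x axis) called lower (blue), called higher (red) or not called (grey) in limma at an adjusted p under 0.05, for the 8 genes and 7 lists of related genes (y axis), in each comparison. The other sterol genes hold 7 called lower in residual against primary cells; recurrent against primary cells have 3 called genes in all 8 rows.

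Of 9 genes that sense sterol other than Insig1 and Srebf2, 0 were called in limma in any comparison. At an unadjusted p under 0.05 there were 2 in residual against primary cells, where 25.8% of all genes were, 1 in recurrent against primary cells, against 13.6%, and 1 in recurrent against residual cells, against 19.7%. In residual against primary cells 1 was called higher in a fit of these groups alone, after each of 2 other scalings and without recurrent 1, 1 was called lower without residual 2, and 1 lower and 1 higher with the replicate number as a block. Srebf1, the sister factor that drives fatty acid synthesis, read 8.23, 8.26 and 7.90 on the residual arrays, against 7.62, 7.71, 7.14 and 7.12 on the primary arrays. All residual arrays were higher, opposite in sign to Srebf2, but the difference of 0.73 did not pass (adjusted p = 0.0747). Scap, the escort that carries SREBP to the Golgi, differed by -0.38 in recurrent against primary cells (adjusted p = 0.117).

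Of 10 genes of cholesterol uptake and transport, 2 were called lower, 3 were called higher and 5 did not pass in residual against primary cells. Scarb1, the HDL receptor, differed by -1.35 (adjusted p = 0.0118). One of the genes called higher was Vldlr, a receptor of triglyceride-rich lipoproteins, with means of 3.98 in residual and 2.93 in primary cells, but it was above background on 0 arrays of any group, so its signals cannot be told from background and no change is read from them. None of the 10 was called in recurrent against primary cells in limma (0 of 10), and 2 had an unadjusted p under 0.05, against 13.6% of all genes.

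Of 15 fatty acid genes driven by SREBP1, 3 fell, 3 rose and 9 did not pass in residual against primary cells, with a median of 0.22. The rises were not called in every setting: 0 were called higher in limma without primary 3 (3 lower), without residual 1 (1 lower), without residual 3 (1 lower) and at an adjusted p under 0.01 (1 lower). Elovl6, an elongase of long-chain fatty acids, differed by -2.17 (adjusted p = 0.00123) and Fasn, fatty acid synthase, by -0.82 (adjusted p = 0.0301), while Fads2 and Scd1, a pair of desaturases, rose by 1.61 (adjusted p = 0.0302) and 0.87 (adjusted p = 0.0297). In recurrent against residual cells Elovl6 and Acly, the enzyme that supplies cytosolic acetyl-CoA, were higher by 1.50 (adjusted p = 0.0196) and 0.81 (adjusted p = 0.0248), while 0 of the list were called there without residual 1 or without residual 3. Against primary cells 0 of 15 were called in recurrent cells in limma, with 1 at an unadjusted p under 0.05, against 13.6% of all genes.

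Genes of LXR, efflux and esterification included 3 that rose, 1 that fell and 9 that did not pass among 13 in residual against primary cells. Abcg1 read 8.62, 8.34 and 7.83 on the residual arrays, against 5.82, 6.03, 6.24 and 5.77 on the primary arrays, a rise of 2.30 (SE 0.30, adjusted p = 0.000477). Mylip, an LXR target and ubiquitin ligase, rose by 1.40 (adjusted p = 0.000297), and Nr1h3, which encodes LXR alpha, by 1.01 (adjusted p = 0.0487). Nr1h3 was above background on 2 of 4 primary arrays, so the size of its rise is uncertain. Of the list 2 genes were called higher, in place of 3, with the replicate number as a block. The same count of 2 was found with arrays centred on their medians and after a second quantile normalization. Nceh1, a hydrolase of cholesterol esters, fell by 0.58 (adjusted p = 0.044). In recurrent against primary cells Mylip rose by 1.13 (adjusted p = 0.00395) and Lpcat3, a phospholipid acyltransferase and LXR target, fell by 1.29 (adjusted p = 0.000446). Abcg1 did not pass there (1.06, limma adjusted p = 0.0866). In recurrent against residual cells 1 of the 13 was called higher and 2 lower. Abcg1 was among the lower, with a difference of -1.23 (adjusted p = 0.0327).

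On the recurrent arrays some of these genes ran opposite to the 8. Relative to the primary mean, Abcg1 stood at 1.58, 1.51, 0.31 and 0.84 on recurrent 1 to 4. Abca1, the main exporter of cholesterol to apolipoproteins, stood at 1.62, 0.97, -0.90 and -0.77. It lies outside the rule for named genes and was picked after its values were seen. Srebf1 stood at 0.89, 0.31, -0.14 and 0.02, and Scd1 at 0.64, 0.52, -0.40 and -0.18. These 4 genes were highest on recurrent 1, where the 8 were lowest by their median. Other genes of the same lists did not run this way. Fads2, at -1.12, 0.04, 0.97 and 1.13, and Fasn, at -0.64, -0.56, 0.21 and -0.04, were lowest there. Mylip, at 1.15, 1.25, 1.24 and 0.86, stayed above the primary mean on every recurrent array. Lpcat3, at -1.43, -1.04, -1.39 and -1.28, stayed below it. No test was made of this pattern over 4 arrays.

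In the isoprenoid branch after Fdps fewer genes passed than did not. Of 12 genes of prenylation, dolichol and ubiquinone, 3 fell and 9 did not pass in residual against primary cells. Pdss1, which builds the ubiquinone tail, fell by 0.94 (adjusted p = 0.00166), Nus1, a subunit of the dolichol synthase, by 0.92 (adjusted p = 0.00111) and Rabggtb, a subunit of the Rab prenyl transferase, by 0.45 (adjusted p = 0.0377). Nus1 also differed by -0.57 in recurrent against primary cells (adjusted p = 0.0431), but 0 genes of the list were called there in limma when any array other than recurrent 3 was left out, in a fit of these groups alone, with the replicate number as a block and after 2 other scalings. Pdss1 was higher in recurrent than in residual cells by 0.70 (adjusted p = 0.0173), and 0 were called there without residual 1, without residual 2, in a fit of these groups alone or with the block.

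Other measures also differed between the groups, some in the direction of the 8 genes and some not. The mean log2 signal of the 8 was 6.81 to 7.27 on primary, 6.02 to 6.26 on residual and 5.74 to 7.15 on recurrent arrays. The mean of 20 genes of G2/M and mitosis was 7.98 to 8.15 on primary, 4.37 to 4.89 on residual and 7.36 to 7.76 on recurrent arrays, and all 20 were lower in residual than in primary cells and higher in recurrent than in residual cells. On recurrent 1 to 4 the mitotic mean was 7.76, 7.36, 7.47 and 7.75. Of the arrays low in the 8 genes, recurrent 1 thus had the highest and recurrent 2 the lowest mitotic mean of the recurrent group. Of 12 measured macrophage markers 6 were lower in residual than in primary cells, with means of 6.11 to 6.88 on primary, 5.05 to 5.88 on residual and 5.47 to 6.63 on recurrent arrays. On recurrent 1 to 4 the macrophage mean was 5.47, 6.20, 5.65 and 6.63. Of 12 fibroblast markers 10 were higher in residual and 8 in recurrent cells than in primary cells, with means of 6.02 to 6.80 on primary, 8.73 to 9.89 on residual and 8.67 to 9.58 on recurrent arrays. Adipocyte markers averaged 3.67 to 3.97 on primary, 3.71 to 4.23 on residual and 3.78 to 4.34 on recurrent arrays, with the defining gene Adipoq under background on all primary and residual arrays. Recurrent 1, where the 8 genes were lowest, had the highest adipocyte mean of all arrays, at 4.34. This was close to the 4.23 of residual 2 and to the background of 4.06 on recurrent 1. There Adipoq read 4.59, above background, and Pparg, an adipocyte regulator, read 5.99. On the other recurrent arrays Adipoq read 3.09 to 3.34 and Pparg 3.85 to 4.44. Some of the other adipocyte markers, Lpl among them, were also highest there among the recurrent arrays, and others were not. Adipoq and Pparg lie outside the rule for named genes. Of the 10 adipocyte markers 2 were called higher in residual than in primary cells, Lpl by 1.27 (adjusted p = 0.0298) and Retn, which was under background on every array, by 0.70 (adjusted p = 0.0102). All 12 macrophage, 11 of 12 fibroblast and 5 of 10 adipocyte markers had a mean above background. Of 9 endothelial markers 2, and of 10 lymphocyte and natural killer cell markers 1, did. The part of cell division and of these other cell types in the levels of the 8 genes was not tested.

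**Figure D5:**
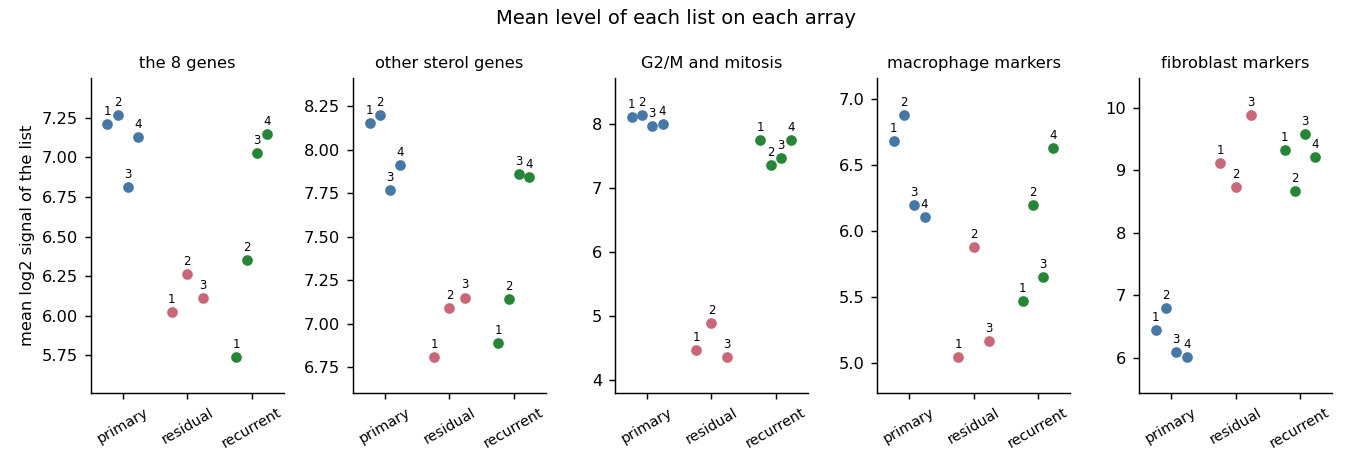
Mean log2 signal (y axes, a separate scale for each panel) of the 8 genes, 11 other sterol genes, 20 genes of G2/M and mitosis, 12 macrophage markers and 12 fibroblast markers on each primary (blue), residual (red) and recurrent (green) array; points carry the array number. The 8 genes and the other sterol genes are low on recurrent 1 and recurrent 2. Mitotic genes lie above every residual array on each recurrent array.

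Among 12972 other genes above background, those with a profile over the 11 arrays closest to the mean profile of the 8 were Acsl5, Gpi1, Tagln2, Lrrc59 and Vta1, at root-mean-square differences of 0.215, 0.22, 0.221, 0.228 and 0.234 log2 units. Acsl5, a ligase that activates long-chain fatty acids, read 8.81, 8.83, 8.85 and 9.04 on primary, 7.68, 8.10 and 7.39 on residual and 7.55, 8.10, 8.60 and 8.53 on recurrent arrays. Gpi1, the glycolytic isomerase, read 10.95, 11.20, 11.03 and 10.98 on primary, 10.01, 9.86 and 10.12 on residual and 10.10, 10.57, 11.27 and 11.15 on recurrent arrays. Both were low on the residual arrays and on recurrent 1, and the likeness is a description with no test.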

How the data were processed

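Log2 signals were used as deposited by the authors, in a table of 24479 rows, each an Entrez Gene identifier, and 11 columns. The values were made with RMA and R 3.0.2, per the submitters' processing notes. RMA compresses differences between dim signals. The labels do not name the probe annotation version. Names came from the platform table (23281 rows) or the RefSeq table of GRCm38.p6 (556 rows), and 642 rows stayed unnamed. Where 2 symbols had several rows the brightest was kept, leaving 23835 genes.

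All arrays entered 1 linear model of the 3 groups in limma 3.58.1 under R 4.3.3 (8 residual and 3.46 prior degrees of freedom). Moderated tests were two-sided, with Benjamini-Hochberg adjustment across all genes in each comparison, and genes were called at an adjusted p under 0.05. The steps were tested on simulated data. The number of arrays limits the precision. The 8 genes, the lists and the tests were chosen with earlier results of these data known. Of each list, up to 4 called genes with the largest change were named, or, where none passed, up to 2 with the lowest p, and of cell type markers the 3 with the highest mean. A few genes named by this rule are not reported here. Lyz2 of the macrophage list had no row. Same-numbered arrays of different groups did not vary together (correlations of deviations -0.081 to 0.017 over 10 pairs), so the numbers were not used as pairs. Alternatives were a replicate block, a fit of the compared groups alone, other scalings, a filter on dim genes, other variance estimates, a stricter threshold, mean rows and leaving out each array. Promoter letters were matched exactly. Figures were drawn with matplotlib 3.10.9.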

Additional observations from a re-analysis of the deposited data

Results flagged for a closer look

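Values stood apart within their group of 4 arrays for 5 genes named in the text. Rabggtb, a subunit of the Rab prenyl transferase, read 8.98 on primary 2 and 8.75 to 8.78 on the other primary arrays, a gap of 0.83 of the group's range. Acsl5 read 9.04 on primary 4 and 8.81 to 8.85 on the others. Adipoq, the adipocyte hormone, read 4.59 on recurrent 1 and 3.09 to 3.34 on the other recurrent arrays, a gap of 0.84 of the range. The epithelial markers Cldn7, at 3.23 on primary 1 and 3.56 to 3.58 on the other primary arrays, and Epcam, at 3.32 on recurrent 2 and 3.43 to 3.45 on the other recurrent arrays, were under background on all these arrays. Chance gives about 1 such case in 20 groups, or 6.1 among the 122 combinations of gene and group for the 61 genes chosen for naming. Among all 119 genes examined, the 8, the pathway and mitotic lists and the markers and like genes named in the text, there were 11 in 238 combinations, where chance gives about 11.9.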

How the results depend on the processing

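Of the 8 genes, Sqle was called lower in residual against primary cells under every alternative run (adjusted p = 0.000194 to 0.0059), and Fdps had an adjusted p of 0.00212 to 0.0504. The number called there was 5 in a fit of those groups alone, 1 at an adjusted p under 0.01 and 1 to 3 with each array left out, in place of 2. In recurrent against primary cells it was 0, except 1 without recurrent 3. In recurrent against residual cells it was 0 in a fit of those groups alone, with the replicate number as a block and at an adjusted p under 0.01, and 0 to 2 with each array left out, in place of 1; without recurrent 1 Hmgcs1 was added (1.13, adjusted p = 0.0474). Signs turned for differences near 0, and the cause was not tested: Hmgcs1 in recurrent against primary cells was 0.25 without recurrent 1 and -0.50 without recurrent 3, the ends of its range. In recurrent against residual cells Lss was -0.04 without residual 3 and -0.07 without recurrent 4, with at most 0.43. Srebf2 was -0.03 without recurrent 4, with at most 0.41. Cyp51 was -0.07 with the block, -0.18 without residual 1, -0.03 without recurrent 3 and -0.31 without recurrent 4, with at most 0.59. The other differences of the 8 genes kept their sign, 483 of them on the same side of the threshold. Among all genes, recurrent against primary cells had 277 called with the block and 203 to 225 without a primary array, in place of 430, and recurrent against residual cells had 609 in a fit of those groups alone and 872 with the block, in place of 1377. At an adjusted p under 0.01 there were 1375 in residual against primary, 142 in recurrent against primary and 521 in recurrent against residual cells. Of the other lists in residual against primary cells, with each array left out, 3 to 6 genes of uptake and transport were called in place of 5, 1 to 6 of SREBP1 fatty acid genes in place of 6, 2 to 4 of LXR genes in place of 4 and 2 to 3 of prenylation genes in place of 3. For recurrent against residual cells these lists had 0 to 4, 0 to 3, 1 to 3 and 0 to 1 called genes. The replicate block changed no other call of the 8 genes.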
